A study of Arabidopsis thaliana with 4 samples.

Results

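The chloroplast genome of Arabidopsis thaliana keeps the genes for the core proteins of the photosynthetic machinery. The 33 genes described here are all those on the plastid chromosome whose symbol begins with psa (photosystem I), psb (photosystem II), pet (cytochrome b6f complex) or atp (ATP synthase), together with rbcL. For each of the 33, the annotation assigned exactly 1 probe set to that gene alone, out of 22589 genes and unassigned probe sets analysed. By complex there were 5 genes of photosystem I, 15 of photosystem II, 6 of the cytochrome b6f complex and 6 of the ATP synthase, and rbcL.

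RNA came from whole plants raised on MS agar in long days, 2 arrays from the ppi2 mutant at 20 days and 2 from wild-type plants at 10 days. The mutant line lacks TOC159, a receptor that brings nuclear-encoded photosynthetic proteins into the chloroplast, and is known for its albino seedlings. Genotype and age differed together, so the 2 cannot be told apart. The titles number the arrays 1 and 2 within each group as biological replicates without saying which plants or batches they came from. The p-values therefore measure only the spread between these arrays.

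Photosynthetic complexes are built from subunits of both genomes. The plastid supplies mostly the reaction-centre and membrane-embedded proteins, and the nucleus supplies peripheral subunits that must be imported. In plants, photosynthesis genes of the plastid are transcribed mainly by a bacterial-type RNA polymerase encoded in the plastid, which needs sigma factors imported from the cytosol. Many of the genes lie in clusters read into shared transcripts, so neighbouring genes are not independent measurements. Standard Affymetrix labelling starts from poly(A) tails, which plastid mRNAs mostly lack, so a signal need not follow the amount of a plastid mRNA, and levels of different genes are not set against each other here. In whole plants, fewer green cells and less plastid RNA per cell also cannot be told apart.

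The arrays did not group by their labels, and this bears on every result below. Over all 22589 features the log2 signals of ppi2 replicate 1 correlated best with those of wild type replicate 2 (r = 0.965). The best partner of ppi2 replicate 2 was wild type replicate 1 (r = 0.924). The remaining 4 pairs lay between 0.882 and 0.907. These correlations run across genes and describe the arrays only. The annotation used assigned no probe set to TOC159, so the labels could not be checked on the mutated gene. Whether arrays were exchanged between the groups was not tested, and every difference between ppi2 and wild type given here takes the labels as they stand. The hybridisation controls, bacterial and phage RNAs added just before hybridisation, had median signals of 840.0 and 1669 on ppi2 replicates 1 and 2 and of 1514 and 1106 on wild type replicates 1 and 2, and so ran in the order found below for many of the plastid genes. The controls added to the RNA before labelling had medians of 1575 and 477 on ppi2 and of 2386 and 481 on wild type, thus brighter on both arrays numbered 1. Their part in the results was not tested. Of 11 listed markers of green leaves, 1 had a probe set of its own. This was RCA, Rubisco activase, with signals of 12918 and 20244 on ppi2 and 16455 and 13709 on wild type. Of 9 root markers 3 were measured, with summed signals of 260 and 352 on ppi2 and 389.9 and 243 on wild type. The 3 were dim, with mean signals of 130 (EXPA18), 85.2 (EXPA7) and 96.1 (AGL42). EXPA7 was lowest on wild type replicate 1 (71.8), where the sum was highest. None was listed at 0, which without detection calls does not show that they were detected. Their part was likewise not tested.

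Between the labelled groups, none of the 33 genes separated ppi2 from wild type beyond the spread between arrays. In the limma fit over all 22589 features, 0 of the 33 had an adjusted p under 0.05, and the share over all features was 0.00%. At an unadjusted p under 0.05 there were 0 of the 33 and 282 of all features, and the smallest unadjusted p among the 33 was 0.398 (limma). The labelled log2 differences, ppi2 minus wild type, ran from -0.65 for psbN, an assembly factor of photosystem II, to 0.70 for psbD, the D2 reaction-centre protein. Their standard errors were 0.99 and 1.304, larger than the differences themselves, so the fit does not show that the groups were alike. In 20 genes the difference was above 0 and in 13 below it, with a median of 0.13 beside -0.03 over all features. That median followed which array was left out, at 1.01 without ppi2 replicate 1 and -0.73 without ppi2 replicate 2. Leaving out a wild-type array gave 0.39 for replicate 1 and -0.26 for replicate 2. In 1 gene the groups did not overlap, while 19.7% of all features had groups that did not. This gene was petG, a small subunit of the cytochrome b6f complex, with signals of 49.5 and 39.9 on ppi2 against 90.5 and 53.2 on wild type, all among the dim values of the arrays.

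**Figure D1:**
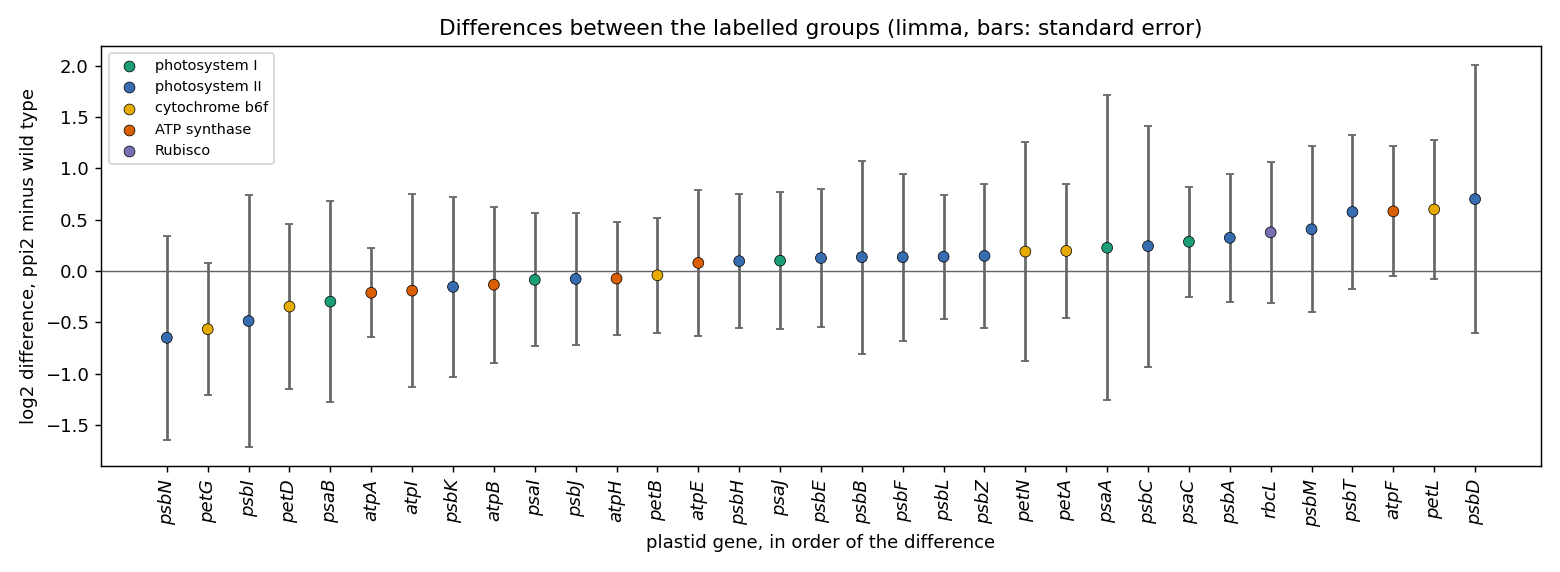
Log2 difference between the labelled groups (ppi2 minus wild type, mean of 2 arrays each) for the 33 genes, coloured by complex, with the limma standard error as bars. The values run from -0.65 (psbN) to 0.70 (psbD), and the bars of all 33 genes span 0.

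The genes differed widely between the 2 ppi2 arrays. On the log2 scale, the array of ppi2 replicate 2 was above ppi2 replicate 1 with a median of 1.86 over the 33 genes, beside 0.05 over all features. In 29 of the 33 it was at least 2-fold above, where 15.2% of all features were. The array of ppi2 replicate 1 was the lowest of the 4 for 26 genes, and ppi2 replicate 2 was the highest for 26. Both held for 24 of the 33, beside 9.50% of all features. When the arrays were scaled to the hybridisation controls instead, both held for 14 of the 33 and for 3.48% of all features. That scaling moved all features of an array together, and with the median of each array subtracted both held for 24 (9.84%).

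**Figure D2:**
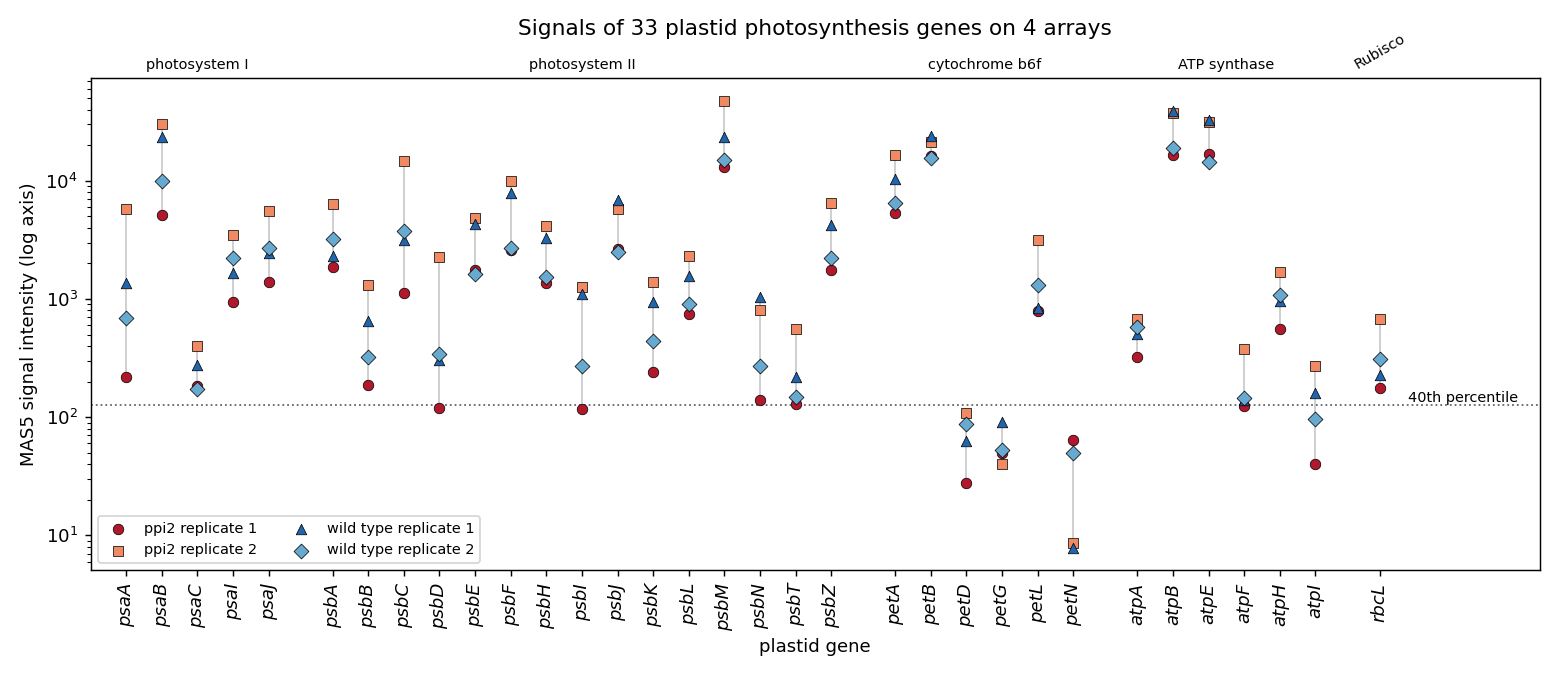
MAS5 signal intensity (log axis) of each of the 33 genes on each of the 4 arrays, grouped by complex; the dotted line is the 40th percentile of mean signals over all features. The array of ppi2 replicate 2 is the highest for 26 genes and ppi2 replicate 1 the lowest for 26; petD, petG and petN lie under the dotted line.

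Taken within each replicate number, the difference between ppi2 and wild type pointed in opposite directions. The median over the 33 genes was -0.99 in number 1 and 1.34 in number 2, beside -0.12 and 0.01 over all features. In 31 of the 33 genes the ppi2 array was the lower one in number 1 and the higher one in number 2, as it was for 38.3% of all features. At least 2-fold lower in number 1 were 16 of the 33 (20.0% of all features), and at least 2-fold higher in number 2 were 24 (14.8%). The order of lower in number 1 and higher in number 2, at any size, was also counted under other scalings. It held for 24 genes when scaled to the hybridisation controls (21.3% of all features). Scaled to the controls added before labelling, it held for 27 (29.9%). Counted relative to the median of all features, it held for 30 with the deposited scaling (34.7% of all features). It also held for 30 with the hybridisation controls (36.7%) and with the controls added before labelling (35.3%). With quantile normalization it held for 28 (33.4%). As deposited, the exceptions were petG, lower in ppi2 in both numbers, and petN, which ran the other way round. Scaling to the hybridisation controls moved the median of all features by more than 0.1, to 0.40 and -0.34. The 33 genes, relative to those medians, stood at -0.90 and 1.28, beside -0.87 and 1.33 with the deposited scaling. Each of these differences rests on 1 array per arm and carries no error and no p-value. Arrays of 1 number are not known to be pairs. The gap between the numbers is made up of the differences between the arrays within each group.

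**Figure D3:**
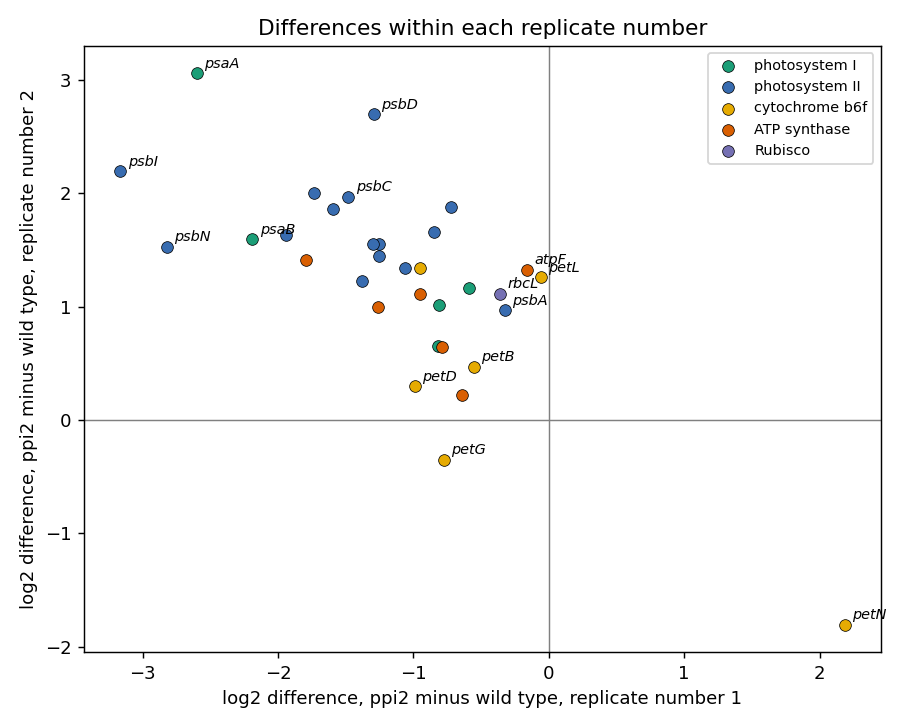
Log2 difference, ppi2 minus wild type, within replicate number 1 (horizontal) and replicate number 2 (vertical) for the 33 genes, coloured by complex, 1 array per arm. In all, 31 points lie in the upper left field; petG lies below 0 on both axes and petN in the lower right.

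Photosystem II, which splits water, contributed 15 genes, and all 15 were lower on the ppi2 array in number 1 and higher in number 2. The median log2 differences were -1.30 and 1.63, and 14 of the 15 were at least 2-fold higher in number 2. Within this complex the 4 large proteins did not share 1 pattern over the arrays. psbD, for the D2 protein of the reaction centre, had signals of 120 and 2255 on ppi2 replicates 1 and 2 and of 305 and 342 on wild type replicates 1 and 2. psbC, for the inner antenna protein CP43, had 1129 and 14842 on ppi2 and 3167 and 3791 on wild type. For both genes 1 array, ppi2 replicate 2, stood far above the other 3, and the wild-type arrays were close together. psbD was thus 18.8-fold higher on ppi2 replicate 2 than on replicate 1, and psbC 13.1-fold. psbA, for the reaction-centre protein D1, showed the same order in a narrower range, with 1856 and 6322 on ppi2 and 2323 and 3225 on wild type. psbB, for the inner antenna protein CP47, instead had 189 and 1322 on ppi2 and 647 and 324 on wild type, with wild type replicate 1 brighter than replicate 2. None of these 4 had groups that separated, and their labelled differences of 0.70 ± 1.304 (psbD), 0.24 ± 1.17 (psbC), 0.32 ± 0.62 (psbA) and 0.14 ± 0.94 (psbB; log2, standard error, n = 2 arrays per group) had an adjusted p of 0.99997 each in limma.

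The small subunits of photosystem II fell into a second pattern. psbE and psbF encode the 2 chains of cytochrome b559. psbE had signals of 1756 and 4802 on ppi2 replicates 1 and 2 and of 4340 and 1629 on wild type replicates 1 and 2, and psbF had 2611 and 9908 against 7889 and 2717. Here ppi2 replicate 2 lay with wild type replicate 1, and ppi2 replicate 1 with wild type replicate 2. The neighbours psbL (750 and 2306 against 1574 and 906) and psbJ (2635 and 5807 against 6866 and 2477), both for small membrane subunits, showed the same crossed order. The widest crossed ranges among the other small proteins were those of psbI and of the assembly factor psbN. psbI, a small subunit next to the reaction centre, had 117 and 1259 on ppi2 and 1113 and 269 on wild type. psbN had 139 and 803 against 1036 and 273, and is read from the strand opposite to its neighbours psbT and psbH. The remaining genes were psbH (1378 and 4168 against 3302 and 1521), psbK (239 and 1384 against 940.0 and 441) and psbZ (1771 and 6520 against 4237 and 2221). All 3 were highest on ppi2 replicate 2 and next highest on wild type replicate 1. psbM (13119 and 47584 against 23570 and 15063) and psbT (130.3 and 560 against 220.1 and 147) had the same order with a wider gap between those arrays. psbM was among the brightest features of every array, and these values do not show whether such signals met the limit of the scanner.

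Photosystem I passes electrons to ferredoxin, and its 5 plastid genes were all lower in ppi2 in number 1 and higher in number 2, with medians of -0.82 and 1.16. psaA and psaB encode the paired core proteins that carry the reaction centre. psaA had signals of 219 and 5834 on ppi2 and of 1370.1 and 695 on wild type, and psaB had 5172 and 30389.8 against 23617 and 10055. Between the ppi2 arrays psaA differed 26.6-fold, the largest ratio among the 33 genes, and psaB 5.88-fold. Although they are neighbours read together, psaA was 4.26-fold higher on ppi2 replicate 2 than on wild type replicate 1 and psaB 1.29-fold. On both of these arrays psaB was among the brightest features, so the doubt about the limit of the scanner bears on its ratio. psaI and psaJ, for small membrane subunits, were low on ppi2 replicate 1 (935 and 1393) and high on ppi2 replicate 2 (3498 and 5509). Their wild-type signals lay between, at 1658 and 2224 for psaI and 2448 and 2726 for psaJ. psaC, for the protein that holds the terminal iron-sulfur clusters, varied least, with 182 and 400.3 on ppi2 and 279 and 175 on wild type. The labelled difference was 0.23 ± 1.49 for psaA and -0.30 ± 0.98 for psaB (log2, standard error, adjusted p of 0.99997 in limma).

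The cytochrome b6f complex links the photosystems, and its 6 genes were mixed, with median differences of -0.66 in number 1 and 0.38 in number 2. Over petA, petB and petL, the 3 with a mean signal at or above the 40th percentile, the medians were -0.55 and 1.26. Over all 6, the second median was -0.02 with quantile normalization. It was -0.0013 with scaling to the hybridisation controls, or 0.34 relative to the median of all features. petA, for cytochrome f, had signals of 5326 and 16423 on ppi2 and of 10306 and 6466 on wild type. petB, for cytochrome b6, had 16239 and 21482 against 23804 and 15513, the narrowest range among the 30 genes with a mean signal at or above the 40th percentile. petB was also among the brightest features of every array, with the same doubt about the limit of the scanner. petL, for a small subunit, had 799 and 3137 against 832 and 1307, so that ppi2 replicate 2 stood alone. The other 3 were dim, with mean signals under the 40th percentile of 126. petD, for subunit IV, had 27.5 and 109 on ppi2 and 62.5 and 86.8 on wild type. petN, for a small subunit, had 63.9 and 8.59 on ppi2 and 7.82 and 49.9 on wild type, the reverse of the common order. For these 3 dim genes, petG included, no statement on a level can be made from 4 signals without detection calls.

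The ATP synthase makes ATP from the proton gradient, and all 6 of its plastid genes were lower in ppi2 in number 1 and higher in number 2, with medians of -0.87 and 1.05. With quantile normalization the medians were -0.48 and 0.55. The gene clusters differed in part. atpB and atpE, for the beta and epsilon subunits of the catalytic head, had signals of 16421 and 37731 (atpB) and of 16851 and 31214 (atpE) on ppi2. The wild-type values were 39311 and 18944 for atpB and 32541 and 14470.4 for atpE. Both genes thus had the crossed order, with ppi2 replicate 2 and wild type replicate 1 nearly equal (ratio 0.96 in each). Both were among the brightest features of every array, so the doubt about the limit of the scanner bears on this near-equality too. The other cluster holds atpI, atpH, atpF and atpA. atpA, for the alpha subunit, had 321 and 676 on ppi2 and 505 and 579 on wild type, and atpH, for the proton-carrying ring, 559.6 and 1703 against 970.2 and 1090.3. atpF, for a subunit of the stalk, had 124 and 379 against 139.7 and 147, and atpI, for the membrane subunit beside the ring, 40.5 and 269 against 160.4 and 95.8. In this cluster ppi2 replicate 2 was the highest and ppi2 replicate 1 the lowest for all 4 genes, and the wild-type arrays lay within 1.67-fold of each other. For atpI wild type replicate 1 was above replicate 2, as for atpB and atpE, and for atpA, atpF and atpH it was below.

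rbcL encodes the large subunit of Rubisco, the enzyme that fixes carbon dioxide. Its signals were 175 and 680.0 on ppi2 and 227 and 310.2 on wild type, 3.88-fold apart between the ppi2 arrays and with ppi2 replicate 2 alone above the others. The difference within number 1, -0.36 on the log2 scale, was 0.18 when scaled to the hybridisation controls and 0.04 when scaled to the controls added before labelling. Relative to the median of all features it was -0.24 as deposited and -0.21 and -0.20 with these scalings. The difference within number 2 was 1.11, and stayed above 0 with both. The labelled difference was 0.38 ± 0.69 (log2, standard error, adjusted p of 0.99997 in limma).

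The wild-type arrays divided the 33 genes. Wild type replicate 1 was above replicate 2 for 21 genes and below it for 12, with a median log2 difference of 0.67 beside 0.11 over all features. The share of all features with replicate 1 above was 55.0%, so the count of 21 is near the background, and with scaling to the controls added before labelling it was 0 of 33, since that scaling moved the median of all features to -1.94. Relative to the median of all features it was 21 with the deposited scaling (50.6% of all features) and 21 with scaling to those controls (53.8%). At least 2-fold above were 10 of the 33, beside 19.0% of all features. The 12 genes not above were psbA, rbcL, psbD, psbC, atpA, atpF, atpH, psaI, psaJ, petL and the dim petD and petN. In all of these except petN, ppi2 replicate 2 was nevertheless at least 2-fold above ppi2 replicate 1. Over the 33 genes, the ppi2 difference (replicate 2 minus 1) and the wild-type difference (replicate 1 minus 2) correlated at r = 0.31, a description across genes that share transcripts.

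Of the 9 clusters with several genes, 4 had 1 sign of the wild-type difference throughout and 5 were mixed, with the deposited scaling. In psbE-psbF-psbL-psbJ it was above 0 for 4 of 4 genes, from 0.79 to 1.54 on the log2 scale. Both genes were above 0 in atpB-atpE (1.05 to 1.17), psaA-psaB (0.97 to 1.23) and psbK-psbI (1.08 to 2.02). In atpI-atpH-atpF-atpA it lay between -0.19 and 0.70, with 1 of 4 above 0. In psbD-psbC-psbZ the overlapping genes psbD and psbC had -0.16 and -0.26 and psbZ, for a small subunit, 0.93. In psaI-petA, psaI had -0.42 and petA 0.67. In psbB-psbT-psbH-petB-petD the exception was the dim petD (-0.43), and in petL-petG-psaJ it was the dim petG (0.69).

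**Figure D4:**
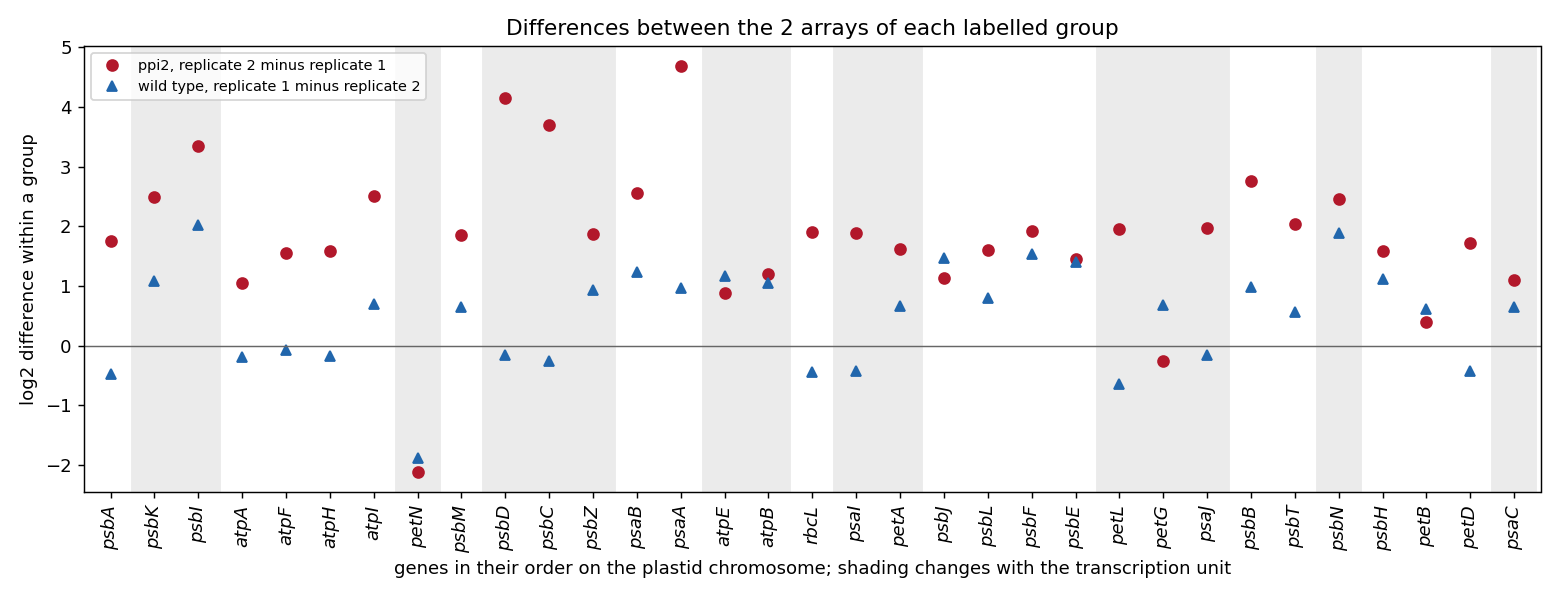
Log2 difference between the 2 arrays of each labelled group for the 33 genes in their order on the plastid chromosome: ppi2 replicate 2 minus 1 (circles) and wild type replicate 1 minus 2 (triangles). Circles reach 4.68 for psaA and 4.15 for psbD; triangles lie below 0 for 12 genes, among them psbD, psbC, rbcL and psbA.

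Across the replicate numbers, the plastid genes also differed between the arrays that were most alike overall. On the log2 scale, ppi2 replicate 2 exceeded wild type replicate 1 with a median of 0.62 over the 33 genes (-0.06 over all features), and 27 of the 33 were above it, beside 44.8% of all features. ppi2 replicate 1 lay below wild type replicate 2 with a median of -0.70 (-0.01 over all features), and 27 of the 33 were below it, beside 51.4% of all features. The largest excess on ppi2 replicate 2 over wild type replicate 1 was 7.40-fold for psbD, followed by psbC at 4.69-fold, psaA at 4.26-fold and petL at 3.77-fold. Scaling to the hybridisation controls left 27 genes above in the first comparison (39.2% of all features) and 21 below in the second (28.1%).

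Nuclear genes for partners of these proteins were nearly equal between the same arrays. Of 38 listed nuclear subunits and related proteins, 7 had a probe set of their own, and 0 passed the threshold between the labelled groups (limma). Over these 7 the median of ppi2 replicate 2 minus wild type replicate 1 was 0.01, with a range from -0.25 to 0.30. All 7 were bright there, from 15614 to 22998 on ppi2 replicate 2. The highest signals of any probe set other than controls were 48116.5 on ppi2 replicate 2 and 65139.5 on wild type replicate 1. Whether the limit of the scanner bears on this near-equality was not tested. The median of ppi2 replicate 1 minus wild type replicate 2 was 0.01 too, ranging from -0.18 to 0.33. PSAE-1, a stromal subunit of photosystem I, had signals of 6948 and 22998 on ppi2 and 22797 and 6889 on wild type. PSBY, a small nuclear-encoded subunit of photosystem II, had 4110.2 and 17365 against 17280 and 4088, and ATPC1, the gamma subunit of the ATP synthase, 5907 and 16166 against 16207 and 5583. All 7 had the crossed order, with ppi2 replicate 2 and wild type replicate 1 above the other arrays. They were lower in ppi2 in number 1 and higher in number 2 (medians of -1.45 and 1.60), as were 31 of the 33 plastid genes. Among the plastid genes, atpB, atpE, petB, psbE, psbF, psbJ and the dim petN also lay within 0.33 of 0 in both comparisons across the numbers. The difference between plastid and nuclear genes was not tested, since each value rests on 1 array. None of the 6 sigma factors had a probe set of its own in the annotation used.

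**Figure D5:**
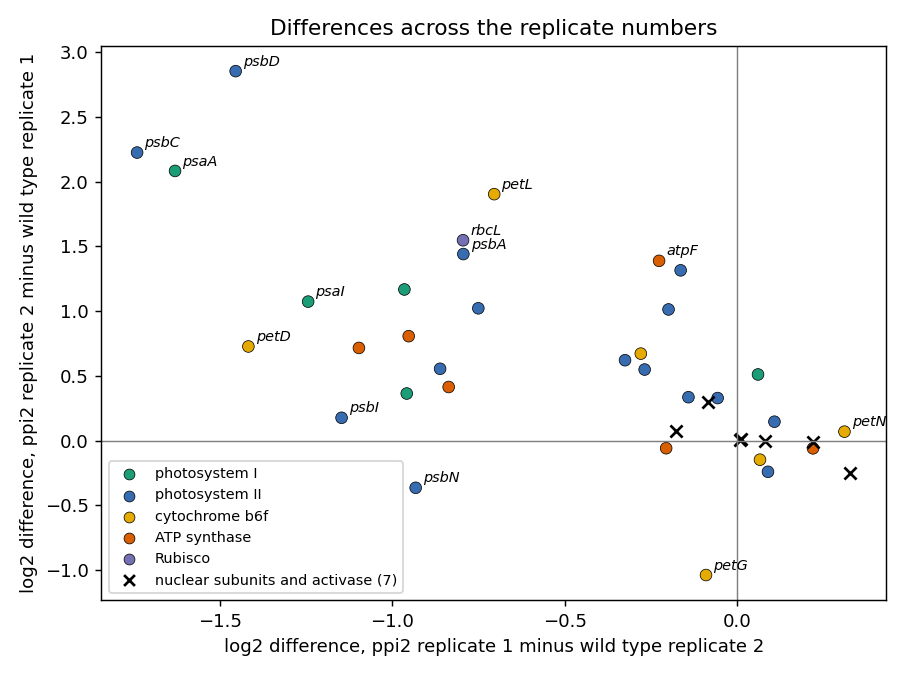
Log2 difference of ppi2 replicate 1 minus wild type replicate 2 (horizontal) and of ppi2 replicate 2 minus wild type replicate 1 (vertical), 1 array per arm, for the 33 plastid genes (circles, coloured by complex) and 7 nuclear genes of the same complexes and of Rubisco activase (crosses). The crosses lie within 0.33 of 0 on both axes, as do the plastid atpB, atpE, petB, psbE, psbF, psbJ and the dim petN. In contrast, psbD, psbC and psaA lie at the upper left.

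Other plastid genes gave a scale for these values. The 10 plastid ndh genes, for the NDH complex of cyclic electron flow, had medians of -0.65 in number 1 and 0.68 in number 2, and 7 of 10 were lower then higher. The 19 genes of the plastid's own transcription and translation (rpo, rps and rpl) had medians of 0.57 and -0.32, and 4 of 19 were lower then higher, against 31 of the 33 photosynthesis genes. Unlike in the differences within a replicate number, the classes ran the same way across the numbers. For the 19 genes the median was 0.49 for ppi2 replicate 2 minus wild type replicate 1, with 18 of 19 above 0, and -0.64 for ppi2 replicate 1 minus wild type replicate 2, with 15 of 19 below 0. These values have 1 array per arm and were not tested.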

How the data were processed

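The authors deposited 1 table of linear signal intensities per probe set for 4 single-colour Affymetrix arrays. Per the submitters' processing notes these were made with MAS5. The sources used here name neither a version of it nor a target for its scaling. Detection calls were not used, and no further scaling was applied. Having only 4 arrays limits the precision.

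Of 22810 probe sets, 64 controls took no part in the fit. By the platform annotation 13513 probe sets had 1 gene and 503 had several, which were never named. Of the former, 13436 matched a RefSeq gene table (TAIR10.1), used for names, the plastid chromosome and gene order only. The brightest probe set stood for a gene (157 others removed), leaving 22589 features with no signal filter. The labelled groups, read from the sample titles, were compared by a two-sided limma test (version 3.58.1, R 4.3.3) with group as sole term, a trended prior variance, 2 residual and 3.34 prior degrees of freedom, and a threshold of 0.05 after Benjamini-Hochberg adjustment. Values were log2(signal + 7.99), the pseudocount being the 10th percentile of all signals, which understates differences of dim genes. Log2 differences are on this scale, while folds are ratios of deposited signals. The fit was tested on simulated data.

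Differences within or across replicate numbers rest on 1 array per arm and have no test. Deviations from the group means correlated at -0.50 between arrays of 1 number, so the numbers were not taken as pairs. The genes, lists and clusters were chosen with earlier results of these data known. All 33 genes are named, and other genes were limited to at most 3 per list, the brightest. Alternatives were other scalings, pseudocounts, signal filters, variance models and probe-set rules, a replicate block and leaving out each array. Python 3.11.15 and matplotlib 3.10.9 made the figures.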

Additional observations from a re-analysis of the deposited data

Results flagged for a closer look

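With the deposited scaling, the ppi2 array was below the wild-type array within replicate number 1, and above it within number 2, for the median gene of each complex. The median log2 difference, ppi2 minus wild type, was -0.99 and 1.34 over the 33 genes, and -1.30 and 1.63 for photosystem II. It was -0.82 and 1.16 for photosystem I, -0.66 and 0.38 for the cytochrome b6f genes and -0.87 and 1.05 for the ATP synthase genes. The 0.38 of the cytochrome b6f genes, some of them dim, was -0.02 with quantile normalization. With scaling to the hybridisation controls it was -0.0013. Whether the numbers differ was not tested, each value resting on 1 array per arm.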

How the results depend on the processing

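Scaling to the control RNAs and a block on crossed numbers were added with the data in view. In limma, 0 of the 33 genes and 0 of all features passed the threshold under every alternative run. With a replicate block, on the numbers as labelled or crossed, no call changed. The labelled median of 0.13 could not change there, since each block held 1 array of each group. Leaving out 1 array gave 0 calls each time and a labelled median from -0.73 to 1.01, where the lone array of a group is assumed to vary like the others. Of 518 labelled values of single genes under the alternatives, 67 changed sign, and 53 of the 67 came from leaving out an array. The blocks, signal filters, variance model and probe-set rule cannot change the labelled difference of a gene here. Their values are among the 518 and could not change sign, so the share of 67 does not measure how firm the signs are. Scaled to the hybridisation controls, ppi2 replicate 1 was lowest and ppi2 replicate 2 highest for 14 genes (3.48% of all features) in place of 24 (9.50%). Both held for 24 again (9.84%) once the median of each array was subtracted. Scaled to the controls added before labelling, wild type replicate 1 was above replicate 2 for 0 genes (9.15% of all features) in place of 21 (55.0%). That scaling moved the median of all features to -1.94. The median differences over the genes kept their signs under the 9 alternatives run on them, from -1.26 to -0.50 in number 1 and from 0.94 to 1.42 in number 2. The signal filters left 30 and 26 of the 33 genes, without petG and petN, and the -1.26 is the median over the 26. No gene here had several probe sets assigned to it alone, so that choice moved none of their values. Dim signals without detection calls limit what petD, petG and petN show.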
